A study of Mus musculus with 10 samples.

Results

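The 10 genes described here encode Toll-like receptors, their co-receptors and their common adaptor: Tlr1, Tlr2, Tlr3, Tlr4, Tlr6, Tlr7, Tlr9, Myd88, Cd14 and Ly96. They were taken by name from the 38922 genes of the mouse liver tables, after mouse Ensembl identifiers were matched to gene symbols. Livers came from wild-type male C57BL/6N mice aged 6 weeks, killed 6 h after an intraperitoneal injection. The 5 CD95-Ab mice received 0.5 µg/g of an agonistic antibody to CD95 (Fas), a death receptor that is abundant on hepatocytes, and the 5 saline-injected controls received an equal volume of saline. No allele, transgene or further agent was used in either group, and each mouse gave its own library of whole liver. Totals ranged from 25965699 to 62097636 counts in saline-injected controls and from 27480796 to 44962196 in CD95-Ab mice. The liver label fitted the marker genes, because Alb (albumin) reached a mean of 84727 CPM (counts scaled to a library total of 1000000) in saline-injected controls and 41434 CPM in CD95-Ab mice.

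Toll-like receptors are membrane proteins that recognise microbial molecules, and some also respond to molecules released by damaged cells. TLR2 forms heterodimers with TLR1 or TLR6 to bind bacterial lipoproteins, TLR4 binds lipopolysaccharide together with MD-2 (encoded by Ly96) after transfer of the ligand by CD14, and TLR3, TLR7 and TLR9 bind nucleic acids inside endosomes. All of these except TLR3 signal through the adaptor MyD88, which leads to activation of NF-κB. In the liver the receptors are best known on Kupffer cells, the resident macrophages, and are also found on recruited leukocytes, endothelial cells and hepatocytes.

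The upstream sequences of the member with the clearest difference at the surface (Tlr2) and of the adaptor (Myd88) are shown. A site of Tlr3 is shown beside them for contrast in size of change. Every CD95-Ab mouse lay above every control for these genes, and also for Tlr1, Tlr4, Tlr6 and Cd14. Sequences were credited to RefSeq on GRCm38.p6, whose promoter table held 6 of the 10 members (Tlr1, Tlr2, Tlr3, Tlr6, Tlr9 and Myd88). Positions are counted from the RefSeq start site, with the base before it at -1, and bases inside annotated untranslated exons are left out except for the short Tlr3 site. Capitals mark matches, on either strand, to a κB motif (GGGNN followed by TTNCC, with N for any base), an interferon regulatory factor motif (GAAANN followed by GAAA), an Sp1 motif (GGGCGG) or a TATA motif (TATAAA). The first lies at chr3:83841768-83841858, minus strand, from -250 to -160, the next at chr9:119340042-119340268, minus strand, from -250 to -24, and the last at chr8:45410572-45410601, minus strand, from -221 to -192.
Tlr2 upstream: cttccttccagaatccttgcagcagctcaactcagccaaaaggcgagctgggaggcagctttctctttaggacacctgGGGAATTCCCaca
Myd88 upstream: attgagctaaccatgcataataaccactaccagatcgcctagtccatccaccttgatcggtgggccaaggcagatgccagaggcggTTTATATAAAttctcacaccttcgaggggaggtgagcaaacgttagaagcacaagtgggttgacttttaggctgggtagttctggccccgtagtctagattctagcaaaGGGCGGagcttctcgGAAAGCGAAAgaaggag
Tlr3 site: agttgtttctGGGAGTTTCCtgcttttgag

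The κB match of Tlr2 began at -172 and read the same on both strands, and Sp1 matches lay nearer the start at -69 and -48, within an exon of the annotated transcript. The κB match of Tlr3 began at -211. No κB match was found in the windows of Tlr1, Tlr6, Tlr9 and Myd88. The Myd88 window held an interferon regulatory factor match at -40, an Sp1 match at -55, and TATA matches at -164 and -160 that overlap each other. Among 32851 promoter windows of 300 bases, 4.79% held the κB motif, 3.44% the interferon regulatory factor motif, 35.7% the Sp1 motif and 13.6% the TATA motif. An AP-1 motif (TGANTCA, 7.81% of windows) was matched in Tlr9 at -58, and an ETS motif (AGGAAGT, 9.35% of windows) in Tlr1 at -22. Tlr6 held, among others, interferon regulatory factor matches at -116 and -110 that overlap each other. These matches are descriptions of letters, and factor binding was not measured.

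Tlr1 and Tlr6 are neighbours on chromosome 5 and are close copies of each other over part of their length, so some reads could fit both. Their longest identical coding stretch has 229 bases and begins at base 1468 of the 2385 coding bases of Tlr1 and at base 1507 of the 2418 coding bases of Tlr6. It is shown because read pairs lying wholly within it could not be assigned to either gene by sequence alone.
Tlr1 and Tlr6 shared coding stretch: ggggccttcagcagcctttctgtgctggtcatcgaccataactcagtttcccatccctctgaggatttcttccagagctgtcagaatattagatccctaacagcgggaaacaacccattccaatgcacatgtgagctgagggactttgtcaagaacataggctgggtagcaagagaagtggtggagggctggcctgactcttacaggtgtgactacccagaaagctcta
Of all stretches of 100 bases, the read length, 7.89% of Tlr1 and 7.09% of Tlr6 occurred in the other gene. The shares for Tlr3 (3.32%, with the antisense gene Gm45542) and Myd88 (4.69%, with Acaa1a on the opposite strand) came from overlapping genes, and none was found for the other 6 members.

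All 10 genes were higher in livers of CD95-Ab mice than in saline-injected controls at a false discovery rate (FDR) of 0.05 or less, with a median log2 fold change of 2.00. The FDR is the Benjamini-Hochberg adjusted p of edgeR's quasi-likelihood test, adjusted over 13719 genes. All 10 passed the filter on low counts, Tlr6 and Tlr9 mainly through CD95-Ab mice. Over all genes tested, 25.4% were higher and 22.0% lower at the same threshold, 47.3% in either direction, and the median log2 fold change was 0.01. Every CD95-Ab mouse lay above every control for 7 of the 10 genes, against 18.6% of all genes tested, while 14.7% of all genes had every CD95-Ab mouse below every control. The groups overlapped for Tlr7, Tlr9 and Ly96. A log2 fold change of 2 or more was reached by Tlr1, Tlr2, Tlr6, Tlr9 and Cd14, 5 of 10, against 6.59% of all genes tested. In whole liver RNA, more cells of a type and more RNA per cell cannot be told apart.

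**Figure D1:**
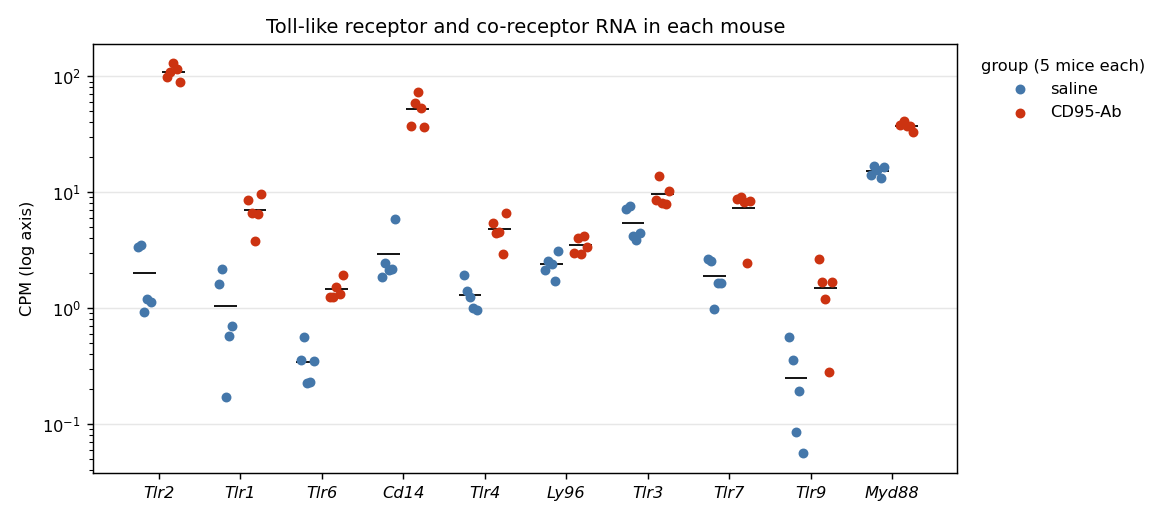
CPM of each of the 10 genes (log axis) in the 5 saline-injected controls (blue) and the 5 CD95-Ab mice (red), with each group's mean as a line. Tlr2 and Cd14 lie farthest apart between the groups, while points of Tlr7, Tlr9 and Ly96 overlap.

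**Figure D2:**
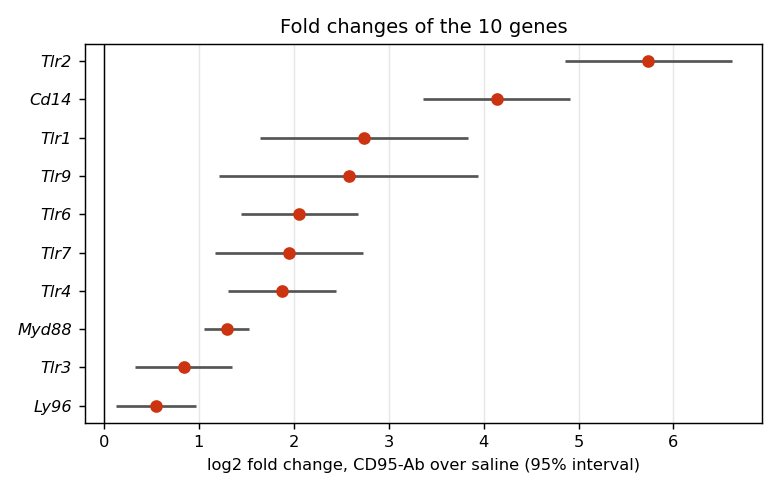
Fitted log2 fold change of CD95-Ab over saline for each gene (points) with its 95% interval (lines), 5 mice per group. Every interval lies above 0, from 0.12 at the lower end for Ly96 to 6.61 at the upper end for Tlr2.

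Tlr2, the shared partner of the lipoprotein receptors, showed the largest change of the 10 genes and stood at position 79 of 13719 when all genes tested were ordered by log2 fold change. The gene lies on chromosome 3 (83836272 to 83841767, minus strand, GRCm38). Its level was 3.39, 3.47, 0.930, 1.19 and 1.13 CPM in saline controls 1 to 5. In CD95-Ab mice 1 to 5 it was 98.8, 109, 129, 115 and 89.0 CPM. The lowest CD95-Ab mouse thus stood far above the highest control, and the counts behind these values were 31 to 144 per control and 2843 to 4021 per CD95-Ab mouse. The means were 2.02 ± 1.29 and 108 ± 15.2 CPM (SD, n = 5 each), a 53.2-fold change (95% interval 29.0 to 97.9). On the log2 scale the change was 5.73 ± 0.40 (SE, edgeR quasi-likelihood FDR = 1.35e-06). Within the controls, mice 1 and 2 were the highest for Tlr2. Their sum of 11 Kupffer cell and macrophage markers was also highest, 499.5 and 638 CPM against 191 to 338 CPM in other controls. Their monocyte, B cell, plasmacytoid dendritic cell and T and NK cell marker sums were the highest of the controls too. The plasmacytoid dendritic cell sum was mostly 1 gene, Tcf4, with a mean of 8.64 of 9.65 CPM in controls. CD95-Ab mice 3 and 4 had the most Tlr2 of their group (129 and 115 CPM) but its lowest macrophage sums (572 and 383 CPM). The part of these cells in either spread was not tested.

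Tlr1, which with TLR2 recognises triacylated lipopeptides, changed less. It lies on chromosome 5 (64924679 to 64933563, minus strand), 18467 bases from Tlr6. Control values were 1.60, 2.16, 0.169, 0.577 and 0.705 CPM for Tlr1, and those of CD95-Ab mice were 8.57, 6.56, 3.78, 6.42 and 9.59 CPM. The groups did not overlap, and mice 1 and 2 were again the highest controls. The log2 fold change was 2.74 ± 0.50 (SE, edgeR quasi-likelihood FDR = 0.000891), from 6 to 73 counts per control.

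Tlr6, which with TLR2 recognises diacylated lipopeptides, was near the lower end of detection in controls. It lies at 64952031 to 64960097 on the minus strand of chromosome 5. Its values were 0.353, 0.563, 0.225, 0.231 and 0.352 CPM in controls, from 6 to 19 counts per mouse. They were 1.25, 1.24, 1.51, 1.33 and 1.93 CPM in CD95-Ab mice, from 33 to 87 counts. All CD95-Ab mice were above all controls, with a log2 fold change of 2.06 ± 0.28 (SE, edgeR quasi-likelihood FDR = 0.00012). The filter on low counts asked for about 0.328 CPM in at least 5 mice, and Tlr6 met it in 2 controls and 5 CD95-Ab mice, so it entered the test mainly through the group in which it was high.

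Cd14, the anchored co-receptor that hands lipopolysaccharide to the TLR4 complex, had the next largest change after Tlr2. The gene is on chromosome 18 (36725067 to 36726798, minus strand). Its level was 1.86, 2.43, 2.11, 2.16 and 5.91 CPM in controls, and 37.4, 59.1, 73.2, 52.6 and 36.4 CPM in CD95-Ab mice. Control 5 stood apart from the other controls but was still far below every CD95-Ab mouse. The means were 2.89 ± 1.70 and 51.8 ± 15.5 CPM (SD, n = 5 each), and the log2 fold change was 4.14 ± 0.36 (SE, edgeR quasi-likelihood FDR = 4.08e-06). Without control 5 the log2 fold change was 4.59. The same control had the highest summed level of the neutrophil markers among controls, 10.8 CPM against 4.31 to 6.37 CPM in the others. It was also the highest control for the stellate cell and hepatocyte marker sums. Among CD95-Ab mice, number 3 had the highest Cd14 and the highest neutrophil sum (440 CPM). Mouse 5, with the lowest Cd14, had a neutrophil sum of 342 CPM. Mouse 1, at 37.4 CPM of Cd14, had the lowest neutrophil sum, 104 CPM. The part of those cells in either spread was not tested.

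Tlr4, the lipopolysaccharide receptor itself, rose to a smaller extent. It lies on chromosome 4 (66827584 to 66930284, plus strand). Controls had 1.93, 1.39, 1.24, 1.0 and 0.964 CPM of Tlr4, and CD95-Ab mice had 5.42, 4.43, 4.54, 2.91 and 6.66 CPM. The lowest CD95-Ab mouse, number 4, was still above the highest control. The log2 fold change was 1.87 ± 0.26 (SE, edgeR quasi-likelihood FDR = 0.000129).

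Ly96, encoding the lipid-binding MD-2 subunit of the TLR4 complex, had the smallest change and the least stable call. It lies on chromosome 1 (16688051 to 16709611, plus strand). The control values of Ly96 were 2.14, 2.55, 2.39, 1.69 and 3.10 CPM, and those of CD95-Ab mice were 2.98, 4.01, 2.91, 4.20 and 3.34 CPM. Control 5 exceeded CD95-Ab mice 1 and 3, so the groups overlapped. The log2 fold change was 0.55 ± 0.19 (SE, edgeR quasi-likelihood FDR = 0.0357), and genes with a larger log2 fold change made up 25.5% of those tested. The call of Ly96 was lost when any of controls 1, 2, 3 and 4 or CD95-Ab mice 2, 4 and 5 was left out (edgeR FDR from 0.0512 to 0.108), and with totals alone as the scaling (FDR = 0.0687).

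Tlr3, the receptor for double-stranded RNA that signals through TRIF and not MyD88, was the most abundant Toll-like receptor among the members in controls on the per-length scale given below. It lies on chromosome 8 (45395665 to 45411080, minus strand). Its level was 7.08, 7.62, 4.14, 3.89 and 4.39 CPM in controls and 8.54, 13.8, 8.08, 7.83 and 10.3 CPM in CD95-Ab mice. The groups touched without overlapping, since the lowest CD95-Ab mouse exceeded the highest control by a small margin. The log2 fold change was 0.84 ± 0.23 (SE, edgeR quasi-likelihood FDR = 0.0114). With totals alone as the scaling, the Tlr3 change was 0.74 and the call was lost (edgeR FDR = 0.0519).

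Tlr7, the receptor for single-stranded RNA, lies on chromosome X (167304929 to 167330558, minus strand), 40599 bases from Tlr8. Controls had 2.66, 2.52, 0.986, 1.65 and 1.65 CPM of Tlr7, and CD95-Ab mice had 8.66, 9.04, 8.16, 2.46 and 8.30 CPM. CD95-Ab mice 1, 2, 3 and 5 lay close together and mouse 4 fell among the controls. The log2 fold change was 1.95 ± 0.36 (SE, edgeR quasi-likelihood FDR = 0.000856), and it was 2.15 without CD95-Ab mouse 4. CD95-Ab mouse 4 had the lowest summed macrophage markers of its group, 383 CPM against 572 to 814 CPM, and the lowest summed monocyte markers, 39.7 CPM against 54.1 to 80.8 CPM. Its summed B cell markers were the highest of its group, 13.6 CPM against 2.28 to 6.51 CPM. The part of these cells in the low Tlr7 level was not tested.

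Tlr9, the receptor for unmethylated CpG DNA, had the lowest mean of the 10 genes per length in both groups. It lies on chromosome 9 (106222598 to 106226883, plus strand). Its values were 0.565, 0.356, 0.0845, 0.192 and 0.0556 CPM in controls, from 3 to 24 counts per mouse, and 2.63, 1.69, 1.19, 0.283 and 1.68 CPM in CD95-Ab mice, from 7 to 82 counts. CD95-Ab mouse 4 was again the low animal and fell below controls 1 and 2. The log2 fold change was 2.58 ± 0.63 (SE, edgeR quasi-likelihood FDR = 0.00528), the widest error of the 10 genes, and the change was 3.17 without control 1. Tlr9 met the filter on low counts in 2 controls and 4 CD95-Ab mice.

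Myd88, the adaptor, had the most even values. It lies on chromosome 9 (119335934 to 119341411, minus strand). Controls had 13.9, 16.6, 15.5, 13.2 and 16.5 CPM of Myd88, and CD95-Ab mice had 37.9, 40.8, 36.8, 37.0 and 33.0 CPM. The groups were far apart relative to their spread, with means of 15.1 ± 1.55 and 37.1 ± 2.78 CPM (SD, n = 5 each), a log2 fold change of 1.29 and an SE of 0.11 (edgeR quasi-likelihood FDR = 3.19e-06). Acaa1a, a peroxisomal thiolase gene whose exons overlap those of Myd88 on the opposite strand, had 173 ± 14.5 and 170 ± 37.7 CPM and a log2 fold change of -0.03 (edgeR quasi-likelihood FDR = 0.881). Whether reads were counted by strand is not given in the sources used here.

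Levels of the 10 genes were compared with each other only as FPKM, fragments scaled to gene length and library total, the per-length values that the authors deposited. In controls the order of mean FPKM was Myd88 (8.16), Ly96 (4.47), Cd14 (1.89), Tlr3 (1.34), Tlr2 (0.738), Tlr7 (0.570), Tlr1 (0.436), Tlr4 (0.358), Tlr6 (0.144) and Tlr9 (0.082). Among neighbours in that order, only Myd88 and Ly96 had ranges that did not overlap. In CD95-Ab mice the order of mean FPKM became Tlr2 (35.4), Cd14 (32.7), Myd88 (18.9), Ly96 (6.18), Tlr1 (2.68), Tlr3 (2.24), Tlr7 (2.07), Tlr4 (1.23), Tlr6 (0.550) and Tlr9 (0.448). The ranges of Cd14 and Myd88, of Myd88 and Ly96, and of Ly96 and Tlr1 did not overlap, while Tlr2 and Cd14 did, with Tlr2 above Cd14 in 3 of 5 mice. Tlr2 thus moved from the fifth place to the first.

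Summed over the 12 Toll-like receptor genes of the mouse, FPKM was 5.17 to 10.9 in controls and 41.5 to 57.4 in CD95-Ab mice. Tlr2 made up 8.13% ± 3.72 of this sum in controls and 70.4% ± 7.33 in CD95-Ab mice (SD, n = 5 each). Tlr12 (24.9% ± 6.21) and Tlr5 (23.4% ± 8.20) took the largest shares in controls and 2.28% ± 0.94 and 1.43% ± 0.55 in CD95-Ab mice. The share of Tlr3 was 15.9% ± 2.78 in controls and 4.40% ± 1.10 in CD95-Ab mice. These shares were computed after the values had been seen and carry no test, and a share falls when Tlr2 rises even where the gene's own level does not fall.

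**Figure D3:**
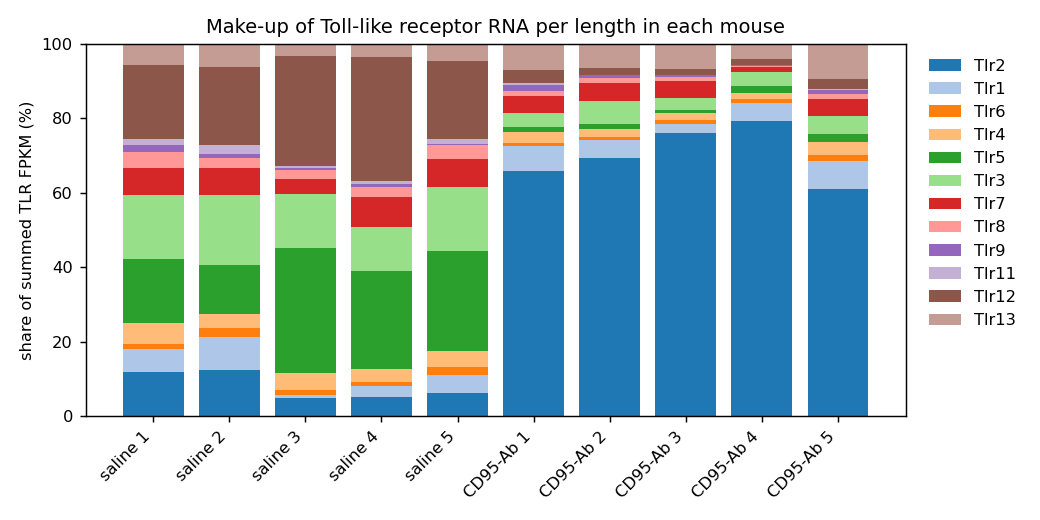
Share of summed FPKM (%) taken by each of 12 Toll-like receptor genes in each mouse, stacked to 100. Tlr2 (lowest segment) takes 4.78% to 12.5% in the 5 saline-injected controls and 61.2% to 79.2% in the 5 CD95-Ab mice.

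Ratios between partner genes within a mouse were compared between groups, 6 in all, with exact two-sided permutation tests on log2 ratios of CPM with 0.1 added, a constant that weighs on genes with few counts. The smallest p that 5 mice against 5 can give is 0.00794. The ratio of Cd14 to Tlr4 was 0.99 ± 0.93 in controls and 3.40 ± 0.76 in CD95-Ab mice (log2, SD, n = 5 each), a difference of 2.41 (exact permutation p = 0.0159, adjusted over 6 ratios p = 0.019). It was above all controls in 4 of 5 CD95-Ab mice, with control 5 reaching 2.50. The ratio of Ly96 to Tlr4 moved the other way, from 0.83 ± 0.52 to -0.41 ± 0.61, a difference of -1.24 (exact permutation p = 0.0159, adjusted p = 0.019), and lay below all controls in 4 of 5 CD95-Ab mice. The co-receptors of TLR4 therefore changed unequally relative to the receptor.

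The ratio of Tlr2 to each of the other 3 surface receptors was higher in 5 of 5 CD95-Ab mice than in all controls. The difference in log2 ratio was 2.95 for Tlr2 to Tlr1, 4.04 for Tlr2 to Tlr6 and 4.09 for Tlr2 to Tlr4, each with exact permutation p = 0.00794 and adjusted p = 0.0159. The ratio of Tlr7 to Tlr9 was 2.64 ± 0.52 in controls and 2.34 ± 0.42 in CD95-Ab mice, a difference of -0.30 that did not pass the test (exact permutation p = 0.357, adjusted p = 0.357). The sign of that difference turned with 1 CPM added in place of 0.1 (0.53, exact permutation adjusted p = 0.00952), so no direction can be given for it at these low Tlr9 counts.

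**Figure D4:**
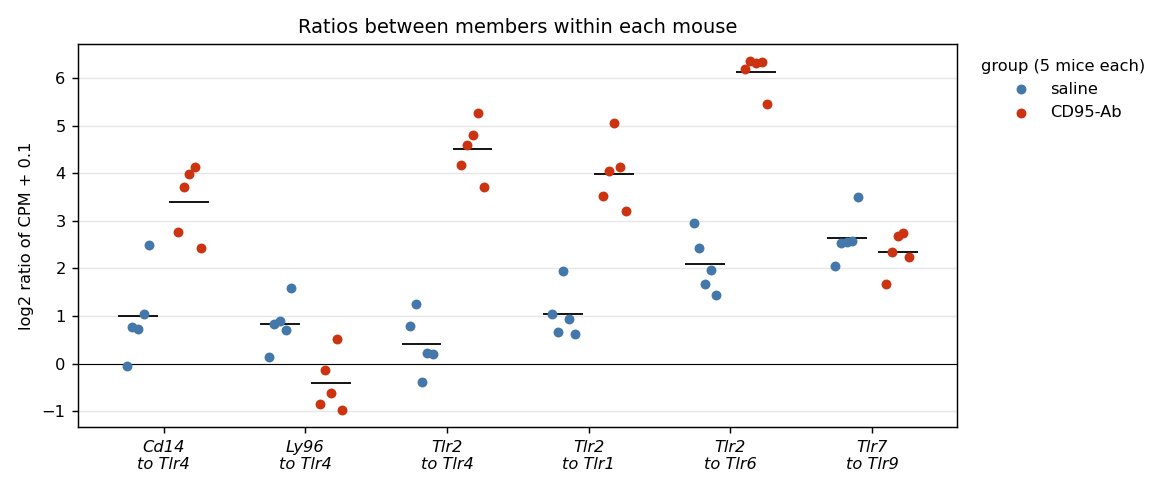
Log2 ratio of CPM plus 0.1 between partner genes within each mouse, for 5 saline-injected controls (blue) and 5 CD95-Ab mice (red), with group means as lines. The ratios of Tlr2 to Tlr4, Tlr1 and Tlr6 separate the groups, Ly96 to Tlr4 is lower in CD95-Ab mice, and Tlr7 to Tlr9 overlaps.

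Markers of cells that can carry these receptors were read from the same fit, in which 25.4% of all genes tested were higher and 22.0% lower. Of 11 Kupffer cell and macrophage markers, 3 were higher (Marco, Cd5l and Cd68), 0 were lower and 8 were not called. The share called higher was close to that of all genes, but their median log2 fold change was 0.60, against 0.01 for all genes. The summed level of these markers was 191 to 638 CPM in controls and 383 to 814 CPM in CD95-Ab mice. Those with the highest mean CPM, a scale not corrected for gene length, were Cd5l, at 95.9 and 193 CPM in controls and CD95-Ab mice, and Clec4f, a Kupffer cell lectin, at 91.9 and 98.4 CPM. All 5 monocyte markers were higher, with sums of 3.27 to 11.4 CPM and 39.7 to 80.8 CPM. All 6 of the 11 neutrophil markers that could be tested were higher, with sums of 4.31 to 10.8 CPM and 104 to 440 CPM. Ly6g, Mpo, Elane, Camp and Ltf were too low to test, and the groups overlapped for Ly6g, Mpo and Elane. Ngp was below the filter's level of about 0.328 CPM in every control and was tested only through CD95-Ab mice. In CD95-Ab mice S100a8 and S100a9 had means of 81.3 and 133 CPM, of a mean neutrophil sum of 286 CPM. Higher calls were also made for 3 of 4 B cell, 4 of 4 plasmacytoid dendritic cell, 5 of 6 T and NK cell, 5 of 6 sinusoidal endothelial, 4 of 6 stellate and 5 of 5 erythroid markers, while 4 of 7 hepatocyte markers were lower. The erythroid sums were 135 to 323 CPM in controls and 1064 to 33995 CPM in CD95-Ab mice, so they differed widely among CD95-Ab mice. No marker was at 0 in all mice of a group. The part of each cell type in the receptor levels was not tested.

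Each member was also set against the summed macrophage markers of the same mouse, a scale chosen after the data had been seen, with exact permutation tests adjusted over 10 genes. This sum leaves out the monocyte and neutrophil markers. Their mean sums were 6.63 and 6.44 CPM in controls and 62.8 and 286 CPM in CD95-Ab mice. The scale therefore cannot take out a change in the number of those cells. On this scale Tlr2 was higher by 5.12 (log2), Cd14 by 3.44, Tlr1 by 2.16 and Tlr7 by 1.08. Each had adjusted exact permutation p = 0.0198 and 5 of 5 CD95-Ab mice above all controls. Tlr9 (1.39), Tlr6 (1.08) and Tlr4 (1.03) had an adjusted exact permutation p of 0.0227, with 4 of 5 CD95-Ab mice above all controls. The differences of Myd88 (0.53, p = 0.198), Tlr3 (0.09, p = 0.675) and Ly96 (-0.21, p = 0.675) did not pass the exact permutation test after adjustment.

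Of the 5 Toll-like receptors outside the 10 genes, 2 were higher, 2 were lower and Tlr11 was too low to test. The counts of this and every later list stand beside 25.4% higher and 22.0% lower among all genes tested. Tlr13, the receptor for a bacterial ribosomal RNA sequence, rose from 1.51 ± 0.71 to 13.9 ± 3.84 CPM (SD, n = 5 each), a log2 fold change of 3.19 (edgeR quasi-likelihood FDR = 1.33e-05). Tlr8, the neighbour of Tlr7, had a log2 fold change of 1.0 (edgeR FDR = 0.0356) with overlapping groups. Tlr5, the flagellin receptor, fell from 5.51 ± 1.24 to 2.29 ± 0.80 CPM with every CD95-Ab mouse below every control (log2 fold change -1.26, edgeR FDR = 0.00217). Tlr12, a receptor for parasite profilin, had a log2 fold change of -0.71 (edgeR FDR = 0.0445). The calls of Tlr8 and Tlr12 were lost under 12 and 11 of 21 alternative settings, and those of Tlr13 and Tlr5 under none.

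Proteins that carry ligands to the receptors or bring the receptors to their place were measured by 9 genes, of which 5 were higher, none lower, 3 not called and Tril too low to test. Cd180, a TLR4-like surface protein without a signalling domain, rose from 1.82 ± 1.61 to 10.5 ± 5.11 CPM (log2 fold change 2.53, edgeR quasi-likelihood FDR = 0.00441). Lbp, the plasma protein that extracts lipopolysaccharide for CD14, rose from 134 ± 44.0 to 444 ± 100.5 CPM (log2 fold change 1.72, edgeR FDR = 0.000131). Cd36, a scavenger receptor that assists the TLR2 and TLR6 pair, rose from 15.2 ± 2.81 to 42.1 ± 8.15 CPM (log2 fold change 1.47, edgeR FDR = 3.55e-05). The median log2 fold change of the 8 tested genes was 0.58.

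Of 21 adaptors and kinases next to the receptors, 7 were higher, 1 was lower and 13 were not called, with a median log2 fold change of 0.25, beside 25.4% higher and 22.0% lower among all genes tested. Ikbke, the kinase IKKε, rose from 16.2 ± 3.75 to 209 ± 97.8 CPM (log2 fold change 3.69, edgeR quasi-likelihood FDR = 3.29e-06). Ticam2, encoding the TLR4 adaptor TRAM, rose from 0.146 ± 0.076 to 0.816 ± 0.272 CPM (log2 fold change 2.46, edgeR FDR = 0.00033). All controls together gave 28 counts of Ticam2, and it passed the filter on low counts only through CD95-Ab mice. Traf3, a ubiquitin ligase of the same branch, had a log2 fold change of 1.37 (edgeR FDR = 1.74e-05). Tab1 was lower by a log2 fold change of -0.44 (edgeR FDR = 0.0411), a call lost under 10 of 21 alternative settings. The 13 genes not called included the adaptor genes Tirap and Ticam1, Irak1 and Traf6, whose log2 fold changes were 0.29, 0.12, 0.19 and 0.20.

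Among 12 negative regulators of the pathway, 8 were higher, 1 was lower, 2 were not called and Il1rl1 was too low to test, with a median log2 fold change of 2.02. Tnfaip3, encoding the ubiquitin-editing enzyme A20, rose from 3.09 ± 1.02 to 122 ± 20.3 CPM (log2 fold change 5.29, edgeR quasi-likelihood FDR = 1.59e-07). Socs1, a suppressor of cytokine signalling, had a log2 fold change of 4.95 (edgeR FDR = 1.97e-05) from 28 counts in all controls together, and 5.59 without control 2. Irak3, the inactive kinase IRAK-M, rose from 0.761 ± 0.256 to 18.1 ± 7.05 CPM (log2 fold change 4.56, edgeR FDR = 1.45e-06). Sigirr, an inhibitory receptor of the same superfamily, fell from 12.7 ± 1.34 to 8.23 ± 0.81 CPM, with a log2 fold change of -0.62 (edgeR FDR = 0.00121).

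Receptors of the interleukin-1 family also signal through MyD88, and 3 of 5 were higher, 1 lower and Il1rl2 too low to test. Il18rap, Il18r1 and Il1r1 had log2 fold changes of 3.58, 2.41 and 2.14 (edgeR quasi-likelihood FDR of 3.58e-05, 0.000648 and 0.000734). Il1rap, the accessory chain of the interleukin-1 receptor, fell from a mean of 120 to a mean of 85.3 CPM, a log2 fold change of -0.49 ± 0.11 (SE, edgeR FDR = 0.00393). The 2 chains of the interleukin-1 receptor thus moved in opposite directions.

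Proteins that have been described as endogenous ligands of these receptors included 6 of 10 genes that were higher, 2 that were lower and 2 that were not called, with a median log2 fold change of 2.88. S100a8, Saa3 and S100a9 had log2 fold changes of 6.44, 6.44 and 6.16 (edgeR quasi-likelihood FDR of 3.19e-06, 1.92e-05 and 6.42e-07). S100a8 and S100a9 are abundant in neutrophils and also stand on the neutrophil marker list above. Hspa1b, an inducible heat shock gene, had a log2 fold change of -0.89 (edgeR FDR = 0.0475), a call lost under 8 of 21 alternative settings.

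Of 10 genes known as targets of MyD88 and NF-κB, 9 were tested and all 9 were higher, while Il12b was too low to test, with a median log2 fold change of 6.23. Il6, Tnf, Ptgs2, Cxcl2, Ccl3 and Ccl4 stayed below the filter's level of about 0.328 CPM in every control. They entered the test only through CD95-Ab mice, so the count of higher calls was partly set by the filter. Cxcl2, a neutrophil chemokine, rose from 0.119 ± 0.078 to 43.1 ± 26.4 CPM (log2 fold change 8.55, edgeR quasi-likelihood FDR = 1.44e-06). Acod1, the itaconate-producing enzyme of activated macrophages, and Ptgs2, the inducible cyclooxygenase, had log2 fold changes of 7.05 and 6.66 (edgeR FDR of 7.52e-07 and 1.63e-05). All controls together gave 21, 34 and 7 counts of these genes, and the log2 fold change of Ptgs2 was 7.41 without control 1.

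Of 10 genes known as targets of TRIF and interferons, 8 were higher, Usp18 was not called and Ifnb1 was not tested, with a median log2 fold change of 2.28. Cxcl10, Rsad2 and Isg15 had log2 fold changes of 6.56, 2.91 and 2.80 (edgeR quasi-likelihood FDR of 3.39e-06, 0.000409 and 0.000355). Ifnb1, encoding interferon-β, was at 0 counts in every mouse, which at 3 counts allows a level of up to 0.048 to 0.116 CPM depending on the mouse. That limit covers counting error only. Over the 8 lists of 82 genes, 48 were higher, 7 lower, 21 not called and 6 not tested. Some of the 48, such as those named above, passed the filter on low counts only through CD95-Ab mice. Of all genes tested, 25.4% were higher and 22.0% lower, and the lists were chosen with earlier results of these data known.

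**Figure D5:**
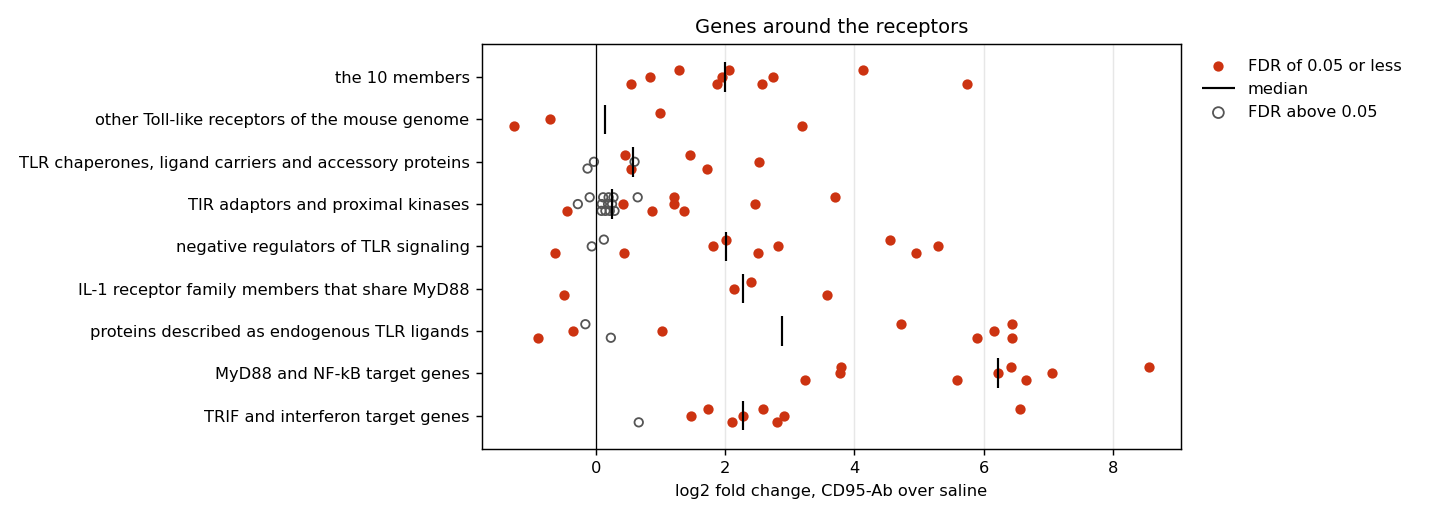
Log2 fold change of CD95-Ab over saline for each tested gene of the 10 members and of 8 lists around them, filled where the FDR is 0.05 or less and open where it is above, with list medians as vertical lines. Medians run from 0.15 for the other Toll-like receptors to 6.23 for MyD88 and NF-κB targets.

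The genes most like each member were found by the root mean square (RMS) difference of their log2 profiles over the 10 mice, each centred on its control mean, among 12129 genes with a mean of at least 1 CPM. The closest to Tlr2 were the chemokine gene Ccl4 (RMS difference 0.35), the interleukin-1 receptor antagonist gene Il1rn (0.43) and Slfn4 (0.53). Those closest to Cd14 were Srgn (0.35), Gm42418 (0.39) and Tifa (0.43), and those closest to Tlr1 included Myo1f (0.38) and Tifab (0.41). Tlr4 was most like Entpd1 (0.22), Hpse (0.23) and Vav3 (0.23), and Tlr6 most like Marcks (0.18), Inpp5d (0.19) and Arhgap30 (0.21).

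Among the endosomal receptors, Tlr3 had the tightest likeness, to Gm8113 (RMS difference 0.10), Trim12c (0.12) and Trim12a (0.19). Tlr7 was most like Gcnt1 (0.27), Soat1 (0.28) and Slc10a2 (0.28). Tlr9 was most like Slfn5 (0.46), Tlr7 (0.48) and Ly9 (0.49), and was the one member with another member among its 3 nearest genes. Tlr6 and Tlr9 themselves fell below the mean of 1 CPM, so neither could be listed as a nearest gene. Myd88 was most like Arhgap1 (0.10), Tfe3 (0.11) and Wdr1 (0.13), and Ly96 most like Rffl (0.15), Trp53bp1 (0.15) and Mob3c (0.16). These genes share the same 10 libraries, and the likeness is a description.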

How the data were processed

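Liver RNA of 5 saline and 5 CD95-Ab mice, grouped by their labels, was analysed. TruSeq libraries of 500 ng RNA were sequenced from both ends to 100 bases. The authors assigned reads to genes with RSEM 1.2.19 and deposited, for each mouse, estimated (expected) counts and FPKM values. The expected counts that the authors deposited were whole numbers without normalization, and the deposited FPKM values were scaled by RSEM for length and library total. Reads fitting several genes were shared out by RSEM, which touches Tlr1 and Tlr6. The mouse annotation and build used for counting are not given in the sources used here; of 38922 identifiers, 37606 were matched to GENCODE M21 (GRCm38).

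Genes passing filterByExpr (minimum count 10) were compared with edgeR 4.0.16 (R 4.3.3), TMM factors, quasi-likelihood test, group as the only term, FDR of 0.05 or less by Benjamini-Hochberg. CPM used TMM-adjusted totals, and SE came from the F statistic. Python 3.11.15, pandas 2.3.3, scipy 1.17.1 and matplotlib 3.10.9 served for exact permutation tests, summaries and plots. Scripts were tested on simulated data. Alternatives were DESeq2 1.42.0, the likelihood ratio test, other scaling factors, filters, thresholds and prior count, limma 3.58.1 on log2 FPKM, the replicate number as a block, each mouse left out, and ratios to macrophage markers, the last chosen after seeing the data. At the unadjusted totals, 3 counts correspond to 0.048 to 0.116 CPM.

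Members and lists were chosen with earlier results of these data known. Named were all members, all genes of lists of 5 or fewer, the 3 largest changes of each longer list with the largest in the other direction, the 2 macrophage markers with the highest mean CPM, and 3 nearest genes per member, of which 1 is not reported here. Genes without a call or too low to test, Marco, Cd68, Tcf4, Acaa1a and Alb were named outside that rule, after their values were seen. So were genes named for passing the filter only through CD95-Ab mice.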

Additional observations from a re-analysis of the deposited data

Results flagged for a closer look

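Within each group of 5 mice, the levels of the 10 genes and the 6 ratios were examined for a mouse far from the other 4, which gave 3 flags in 32 groups, where chance gives about 1 in 20. CD95-Ab mouse 4 had 2.46 CPM of Tlr7, below the other CD95-Ab mice at 8.16 to 9.04 CPM. Saline control 5 had 5.91 CPM of Cd14, above the other controls at 1.86 to 2.43 CPM. The log2 ratio of Tlr2 to Tlr6 was 5.46 in CD95-Ab mouse 5, below the other CD95-Ab mice at 6.19 to 6.35, and still above every control. The cause of these values was not tested.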

How the results depend on the processing

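With a log2 fold change of 2 or more required as well, 904 genes were higher and 152 lower, 5 of the 10 members were higher, and 0 list genes were lower. At an FDR of 0.01, 1897 genes and 3 list genes were lower. The 7 list genes that were lower became 4 with the replicate number as a block, and 3 to 5 with 1 mouse left out: 3 without CD95-Ab mouse 2, 4 without any of the 5 controls or CD95-Ab mice 1 and 5, and 5 without CD95-Ab mice 3 and 4. With 1 mouse left out, 9 to 10 members and 45 to 49 list genes were higher. The Tlr7 to Tlr9 difference reversed to 0.53 with 1 CPM added and to 0.14 with FPKM, and that of Ly96 reversed to -0.21 relative to macrophage markers. Ly96 lost its call under 11 of 21 settings at the FDR of 0.05 and Tlr3 under 2, and Myd88 did not pass relative to macrophage markers (0.53). A filter of 10 counts in every mouse left Tlr1, Tlr6 and Tlr9 untested. Correlations of same-numbered mice ran from -0.27 to 0.26, and those of differently numbered mice from -0.35 to 0.51. No pairing by number was thus seen, though so few correlations cannot exclude it. With the replicate block Ly96 lost its call (edgeR FDR = 0.072). Depth limits Tlr9, Tlr6 and Tlr1, with as few as 3, 6 and 6 counts in a control. The causes of these changes were not tested.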
